A study of Homo sapiens with 6 samples.

Results

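The 9 genes described here encode adhesion molecules of leukocytes: the ligands ICAM1, ICAM2 and ICAM3, the integrin chains ITGAL, ITGB2, ITGA4, ITGB1 and ITGB7, and the selectin ligand SELPLG. They were chosen by name, with earlier results of these data known. Matched by Ensembl identifier to the symbols of GENCODE release 29, they are 9 of 58096 genes in the count files. All 9 passed the filter on low counts, which left 13975 genes for testing, and each had at least 9 reads in every library. The cells were ALL-SIL, a line from a human acute leukaemia of T lymphoblasts that carries a rearranged TLX1 gene and the fusion NUP214-ABL1, kept in RPMI medium with 20% fetal bovine serum. The labels gave 3 libraries of total RNA from cells given JQ1 (1 µM for 24 h), an inhibitor that takes the place of acetylated histone tails in the bromodomains of BET proteins, and 3 from cells given DMSO, the solvent. The treatment text of all 6 libraries repeats the JQ1 dose and time, so the groups rest on the titles. A single line was used, and the labels do not say whether replicates were separate cultures, so the p-values reflect only how far these 6 libraries scatter, which may be technical scatter.

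Integrins are receptors made of an α and a β chain that bind other cells or matrix and are switched to high affinity from inside the cell. ITGAL and ITGB2 encode the chains of LFA-1, which binds the ICAM proteins and holds T cells to antigen-presenting cells and to vessel walls. ITGA4 pairs with ITGB1 to form VLA-4, a receptor for VCAM1 and fibronectin that holds leukaemia cells to marrow stroma, or with ITGB7 to form the gut-homing receptor for MADCAM1. SELPLG encodes PSGL-1, a mucin that lets leukocytes roll on selectins.

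Gene counts ran from 15925885 to 24857219 per JQ1 library and from 20391040 to 25293884 per DMSO library. Levels are CPM (a gene's reads per 1e6 gene reads of its library) after TMM scaling, as mean ± SD over 3 libraries a group, and a change is the log2 ratio, JQ1 over DMSO, with its standard error (SE) from edgeR, called at an adjusted p under 0.05 over all tested genes. MYC, which BET inhibitors commonly lower, had 135 ± 14.8 CPM in JQ1 and 358 ± 12.1 in DMSO. HEXIM1, a common marker of BET inhibition, had 89.3 ± 19.2 CPM in JQ1 and 29.8 ± 7.17 in DMSO. The T-cell genes CD3D (273 CPM in JQ1 and 391 in DMSO) and CD7 (160.3 in JQ1 and 224 in DMSO) were abundant. Other T-cell markers were not: TRAC had 1 read in JQ1 and 2 in DMSO, CD2 had 4 and 102, and PTCRA 4 and 38. Of 10 T-cell markers tested among 12, 7 were lower in JQ1 and 0 higher. Over all tested genes 20.6% were called lower and 15.9% higher. Myeloid and endothelial markers were at or near 0: 6 of 10 and 5 of 6 had no read in any library, and LYZ, the myeloid gene with most reads, had 3 in JQ1 and 1 in DMSO. Of 8 erythroid and platelet markers 6 had no read, and HBG2 had 14 in JQ1 and 11 in DMSO. The summed level of 7 B-cell markers was 1.61 to 6.34 CPM in JQ1 and 11.5 to 24.5 CPM in DMSO, nearly all from CD79A and CD79B, while MS4A1 had no read. The summed level of 6 fibroblast markers was 2.51 to 3.33 CPM in JQ1 and 7.83 to 10.6 CPM in DMSO. It came from PDGFRB, with COL1A2, COL3A1, DCN and LUM at 0. The part of these falls in the levels of the adhesion genes was not tested. In bulk RNA, fewer cells of a type and less RNA per cell cannot be told apart.

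Most of the adhesion genes were lower under JQ1. Of the 9, 7 fell and 1 rose; across all tested genes 20.6% were called lower, 15.9% higher and 36.6% in either direction. A fall of more than 2-fold was called for 5 of the 9 (ICAM1, ICAM3, ITGA4, ITGB7 and SELPLG) and for 7.61% of all tested genes. ICAM3, at 2.0-fold, was just past the limit. Its log2 change was -0.995 with DESeq2 and -1.01 with limma-voom, so whether it counts depends on the processing. The genes that fell were ICAM1, ICAM3, ITGAL, ITGB2, ITGA4, ITGB7 and SELPLG. ITGB1 rose, and ICAM2 did not pass the test. The JQ1 libraries lay wholly below the DMSO libraries for 7 of the 9 genes and wholly above for 1, where 26.0% and 22.9% of all tested genes did so, and 48.9% either way. The median log2 change was -1.0 over the 9 genes and 0.00 over all tested genes. Since the 9 were chosen with earlier results of these data known, these comparisons with all tested genes are a description.

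**Figure D1:**
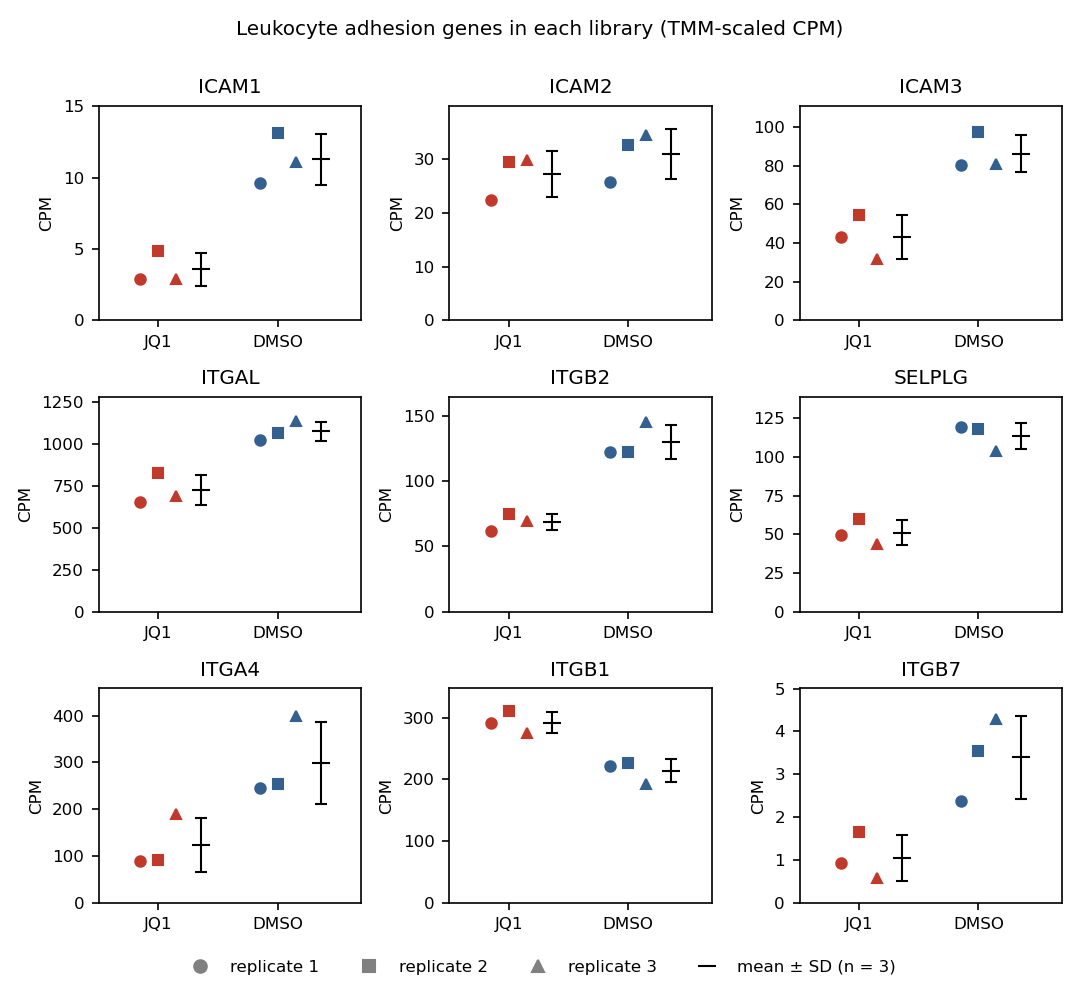
Level of each of the 9 genes in each library, in TMM-scaled CPM on axes that start at 0, with JQ1 left and DMSO right. Marker shapes give the replicate number and bars the mean ± SD of 3 libraries. For 8 genes the groups do not overlap, and ITGB1 alone lies higher in JQ1.

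ICAM1 is the inducible ligand of LFA-1, a target of NF-kB that inflammatory cytokines raise. It had 2.91, 4.88 and 2.90 CPM in JQ1 replicates 1, 2 and 3, against 9.60, 13.1 and 11.1 CPM in DMSO replicates 1, 2 and 3. Every JQ1 library was below every DMSO library, and JQ1 replicate 2 was the highest of its group. The means were 3.56 ± 1.14 CPM in JQ1 and 11.3 ± 1.77 CPM in DMSO, a log2 change of -1.65 ± 0.22 (edgeR adjusted p = 0.00037). Few reads stand behind it: 72, 104 and 45 in the JQ1 libraries and 195, 334 and 292 in the DMSO libraries. ICAM1 (ENSG00000090339.8) lies on the plus strand of chromosome 19, from 10270835 to 10286615 on GRCh38.

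The promoter of ICAM1 is shown because it had the largest fall among the ICAM genes. The RefSeq table (GRCh38.p14) held promoters for 5 of the 9 genes, namely ICAM1, ICAM3, ITGA4, ITGB1 and ITGB7, each with 250 bases before and 50 after the start of transcription. They were searched on both strands for GGAAGT (an ETS motif), TGTGGT (RUNX), GGGCGG (SP1), CACGTG (E-box), TATAAA and the NF-kB consensus by name. Among its 35116 promoters 22.8%, 13.1%, 45.0%, 7.26%, 11.5% and 11.3% held a match, in that order. The ICAM1 window, chr19:10270870-10271169 on the plus strand, is given 5′ to 3′ with matches in capitals.
ICAM1: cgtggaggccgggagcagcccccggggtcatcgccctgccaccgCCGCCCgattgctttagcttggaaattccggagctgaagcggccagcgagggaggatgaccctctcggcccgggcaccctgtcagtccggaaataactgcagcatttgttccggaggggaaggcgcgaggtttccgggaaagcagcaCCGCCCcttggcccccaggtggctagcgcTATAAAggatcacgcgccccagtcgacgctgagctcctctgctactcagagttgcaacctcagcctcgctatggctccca
It held a TATAAA at bases -30 to -25 from the start and SP1 matches on the minus strand at -206 to -201 and -59 to -54. None of the other letters searched are in this window. Only exact matches were sought, so a site whose letters depart from these, of NF-kB or ETS among them, is not marked.

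ICAM3 is carried at the surface of resting lymphocytes and takes part in the first contact of a T cell with an antigen-presenting cell. Its level was 42.9, 54.4 and 31.6 CPM in JQ1 replicates 1, 2 and 3, against 80.1, 97.5 and 81.1 CPM in DMSO. The groups did not overlap, and JQ1 replicate 3 was the lowest library. With 43.0 ± 11.4 CPM in JQ1 and 86.2 ± 9.78 CPM in DMSO the log2 change was -1.0 ± 0.18 (edgeR adjusted p = 0.0023). ICAM3 (ENSG00000076662.9, chromosome 19, 10333776 to 10339823, minus strand) shares 71.2% of its exon bases with AC114271.1, an annotated antisense gene on the other strand. Without regard to strand only 17.6% of its JQ1 reads and 17.2% of its DMSO reads could be assigned, and the log2 change was -0.99 (edgeR adjusted p = 0.014).

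ICAM2, a further LFA-1 ligand that endothelium and lymphocytes carry without induction, had 22.4, 29.5 and 29.8 CPM in JQ1, against 25.8, 32.7 and 34.6 CPM in DMSO. The groups overlapped, with replicate 1 the lowest in both. The log2 change was -0.19 ± 0.14 (edgeR adjusted p = 0.33), with a 95% interval from -0.51 to 0.13, so these libraries leave room for a fall as large as -0.51. Within each replicate number the JQ1 library was the lower, by log2 differences of -0.20, -0.15 and -0.21 for numbers 1, 2 and 3. With the number as a block the change was -0.19 ± 0.08 (edgeR adjusted p = 0.04). ICAM2 (ENSG00000108622.10) lies on chromosome 17, 64002594 to 64020634, minus strand, and 26.8% of its exon bases are shared with PRR29 on the other strand, a gene with 4 reads in JQ1 and 15 in DMSO.

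RNA of both chains of LFA-1 fell. These data hold no protein levels. ITGAL, the α chain, was the most abundant of the 9 genes per kilobase of exon and had 654, 825 and 691 CPM in JQ1 replicates 1, 2 and 3, against 1023, 1065 and 1138 CPM in DMSO. Every JQ1 library was below every DMSO library, and the means were 723 ± 90.1 CPM in JQ1 and 1075 ± 58.6 CPM in DMSO. Its log2 change was -0.57 ± 0.12 (edgeR adjusted p = 0.0045), the smallest of the 7 falls. ITGAL (ENSG00000005844.17) lies on the plus strand of chromosome 16, 30472658 to 30523185.

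ITGB2, the β chain that LFA-1 shares with the myeloid integrins, had 62.0, 74.5 and 69.4 CPM in JQ1, against 122, 123 and 145 CPM in DMSO. The groups were far apart relative to their spread, at 68.6 ± 6.26 CPM in JQ1 and 130.2 ± 13.2 CPM in DMSO. The log2 change was -0.92 ± 0.10 (edgeR adjusted p = 0.00012). ITGB2 (ENSG00000160255.17, chromosome 21, 44885953 to 44931989, minus strand) overlaps the antisense gene ITGB2-AS1, which had 89 reads in JQ1 and 508 in DMSO (log2 change -2.26, edgeR adjusted p = 7.9e-05). Opposite-strand reads over ITGB2 itself fell too, with 13 in JQ1 and 50 in DMSO (log2 change -1.70 ± 0.46, edgeR adjusted p = 0.015). They were 0.310% of its sense reads in JQ1 and 0.529% in DMSO.

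RNA of the α4 chain fell while RNA of its partner β1 rose. ITGA4 had 89.3, 92.2 and 190.3 CPM in JQ1 replicates 1, 2 and 3, against 244, 253 and 400.2 CPM in DMSO. In both groups replicate 3 stood well above the others, yet the groups did not overlap. The means were 124 ± 57.5 CPM in JQ1 and 299 ± 87.6 CPM in DMSO, a log2 change of -1.27 ± 0.35 (edgeR adjusted p = 0.031). Within numbers 1, 2 and 3 the log2 differences were -1.45, -1.46 and -1.07, and with the number as a block the change was -1.32 ± 0.07 (edgeR adjusted p = 5.3e-14). The call was lost without 4 of the 6 libraries in turn: without replicate 1 or 2 of JQ1 the log2 change was -1.08 and -1.10 (edgeR adjusted p = 0.092 and 0.089), and without replicate 1 or 3 of DMSO it was -1.40 and -1.0 (0.054 and 0.076). With no filter on low counts the log2 change was -1.30 (edgeR adjusted p = 0.15). ITGA4 (ENSG00000115232.13) lies on chromosome 2, 181457202 to 181536187, plus strand, and its promoter window held none of the letters searched.

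ITGB1, the β chain of VLA-4 and of the collagen and fibronectin receptors, had 291, 310.3 and 275 CPM in JQ1, against 222, 227 and 193 CPM in DMSO. It was the only one of the 9 genes with every JQ1 library above every DMSO library. With 292 ± 17.6 CPM in JQ1 and 214 ± 18.4 CPM in DMSO it rose 1.36-fold (log2 change 0.45 ± 0.10, edgeR adjusted p = 0.0059). The rise was seen within each number, at 0.39, 0.45 and 0.51, and held its direction under each scaling tried (0.39 to 0.47). ITGB1 (ENSG00000150093.18) lies on chromosome 10, 32900319 to 33005792, minus strand.

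ITGB7, the other β partner of α4, was close to the limit of what these libraries measure. It had 23, 35 and 9 reads in JQ1 replicates 1, 2 and 3, against 48, 90 and 113 reads in DMSO, which is 0.929, 1.64 and 0.580 CPM against 2.36, 3.53 and 4.28 CPM. The groups did not overlap. At 1.05 ± 0.542 CPM in JQ1 and 3.39 ± 0.966 CPM in DMSO, the log2 change was -1.66 ± 0.35 (edgeR adjusted p = 0.0045). Its size is uncertain, with -1.42 without JQ1 replicate 3 and -2.12 without JQ1 replicate 2. ITGB7 (ENSG00000139626.15, chromosome 12, 53191318 to 53207307, minus strand) shares 42.1% of its exon bases with ZNF740 on the other strand, so 192 opposite-strand reads in JQ1 and 234 in DMSO lay over it. Without regard to strand its log2 change was -1.18 (edgeR adjusted p = 0.032).

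The promoters of ITGB1 and ITGB7 are set side by side because these β chains share the α4 partner and their RNA moved in opposite directions. ITGB1 has 2 start sites in the RefSeq table, and the upstream one is shown (chr10:32958181-32958480, minus strand), with ITGB7 at chr12:53207202-53207501 on the minus strand. Both are written 5′ to 3′ along the gene, with matches to the same 6 motifs in capitals.
ITGB1: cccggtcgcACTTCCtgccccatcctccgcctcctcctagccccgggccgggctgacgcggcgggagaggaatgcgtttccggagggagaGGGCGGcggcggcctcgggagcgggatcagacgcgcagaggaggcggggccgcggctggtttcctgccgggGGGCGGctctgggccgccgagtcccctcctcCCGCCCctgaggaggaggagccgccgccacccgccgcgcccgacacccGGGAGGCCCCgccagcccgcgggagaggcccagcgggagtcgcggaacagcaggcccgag
ITGB7: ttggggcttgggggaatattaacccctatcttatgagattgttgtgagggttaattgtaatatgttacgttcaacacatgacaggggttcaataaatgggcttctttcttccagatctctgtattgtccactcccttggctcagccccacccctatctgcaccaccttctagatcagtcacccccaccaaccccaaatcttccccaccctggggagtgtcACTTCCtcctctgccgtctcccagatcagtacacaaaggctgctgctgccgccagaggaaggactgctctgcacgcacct
The ITGB1 window held 3 SP1 matches, at -160 to -155, -89 to -84 and -58 to -53. It also held an ETS match at -241 to -236 and an NF-kB match at -10 to -1, and had 78.3% G and C. The ITGB7 window held an ETS match at -30 to -25 only, with 51.7% G and C. The other ITGB1 start, not shown, had 40.7% G and C and no SP1 or NF-kB match. It held an ETS match at -212 to -207 and TATAAA at -102 to -97, -100 to -95 and -35 to -30. Which start these cells use was not tested. ICAM3, which fell, has 3 start sites, not shown. The most upstream held an NF-kB match at -56 to -47, and the most downstream SP1 matches at -188 to -183 and -33 to -28. A match is a run of letters, not a shown binding site.

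SELPLG, the selectin ligand PSGL-1, had 49.6, 59.8 and 43.6 CPM in JQ1 replicates 1, 2 and 3, against 119, 118 and 104 CPM in DMSO. The highest JQ1 library lay far below the lowest DMSO library. The means of 51.0 ± 8.17 CPM in JQ1 and 114 ± 8.55 CPM in DMSO lie -1.15 ± 0.12 apart in log2 (edgeR adjusted p = 7.6e-05), and no other of the 9 genes had a smaller adjusted p. SELPLG (ENSG00000110876.9) lies on chromosome 12, 108622277 to 108633959, minus strand, and counting without regard to strand gave 101% of its sense reads in both groups.

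**Figure D2:**
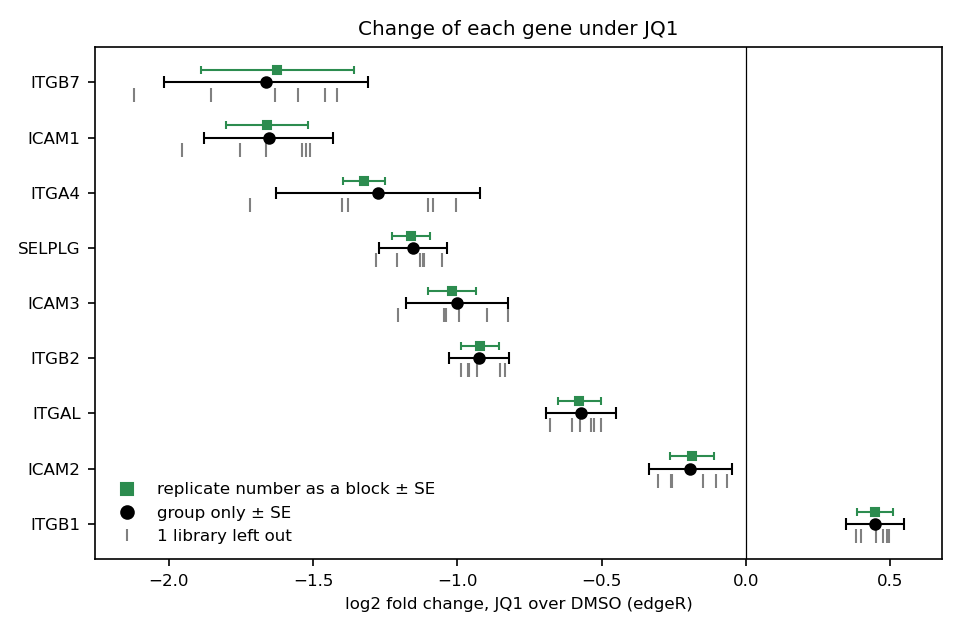
Log2 fold change of JQ1 over DMSO for each of the 9 genes, with the fit by group (circles, ± SE), the fit with the replicate number as a block (squares, ± SE) and the fits with 1 library left out (grey ticks). The 7 genes that fell run from -1.66 (ITGB7) to -0.57 (ITGAL), ICAM2 is at -0.19 and ITGB1 at 0.45, and ITGA4 has the widest gap between the SE of the fit by group and that of the block.

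Levels can be set against each other only per length, here as CPM per kilobase of the union of a gene's exons. In JQ1 ITGAL had 112 ± 13.9 CPM per kilobase, ITGB1 48.6 ± 2.93, SELPLG 20.5 ± 3.28, ITGA4 15.7 ± 7.28, ICAM3 14.6 ± 3.86, ITGB2 10.1 ± 0.921, ICAM2 8.40 ± 1.30, ICAM1 0.962 ± 0.308 and ITGB7 0.234 ± 0.121. In DMSO the order was ITGAL at 166 ± 9.05 CPM per kilobase, SELPLG 45.6 ± 3.43, ITGA4 37.9 ± 11.1, ITGB1 35.7 ± 3.06, ICAM3 29.2 ± 3.32, ITGB2 19.2 ± 1.94, ICAM2 9.56 ± 1.43, ICAM1 3.04 ± 0.476 and ITGB7 0.757 ± 0.216. Among neighbours in the JQ1 order, the libraries of SELPLG and ITGA4, of ITGA4 and ICAM3, of ICAM3 and ITGB2 and of ITGB2 and ICAM2 overlapped. In the DMSO order those of SELPLG and ITGA4 and of ITGA4 and ITGB1 overlapped, as did those of ITGB1 and ICAM3, while every SELPLG library lay above every ITGB1 library. ITGB1 stood 4th in DMSO and 2nd in JQ1. With the length of the longest transcript in place of the exon union SELPLG stood 4th in both groups, ITGA4 3rd in JQ1 and 2nd in DMSO, and ITGB1 2nd in JQ1 and 3rd in DMSO. ICAM2 then stood 5th, ICAM3 6th and ITGB2 7th in JQ1, while ITGAL stayed 1st, ICAM1 8th and ITGB7 9th in both groups. That length moved the levels of 4 genes by over 1.5 times. ICAM2 was then at 20.4 CPM per kilobase in JQ1 and 23.2 in DMSO, and ITGA4 at 29.6 in JQ1 and 71.4 in DMSO. ITGB1 was at 77.2 CPM per kilobase in JQ1 and 56.6 in DMSO, and ITGB7 at 0.367 in JQ1 and 1.18 in DMSO.

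**Figure D3:**
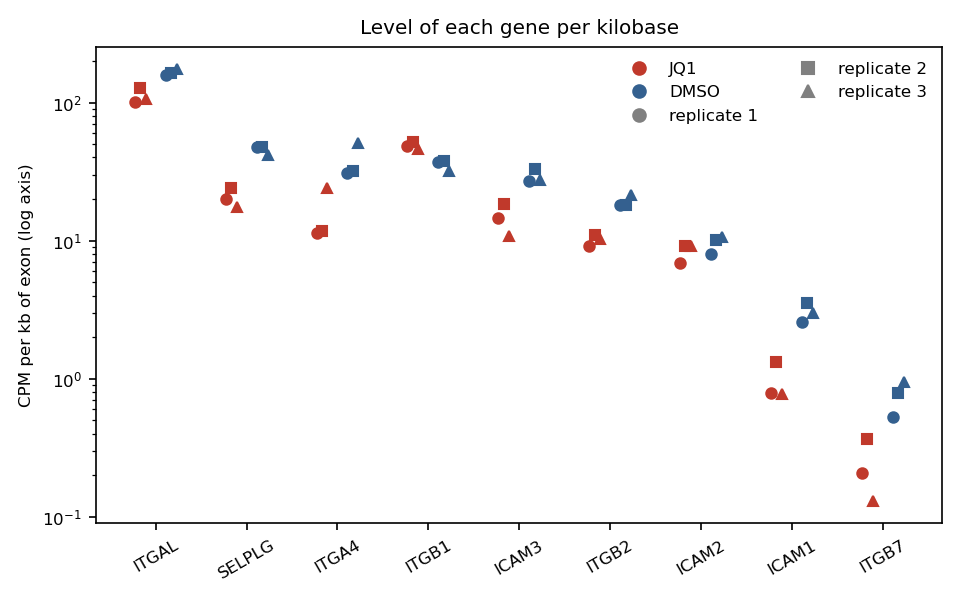
Level of each gene in each library as CPM per kilobase of exon, on a log axis, ordered by the DMSO mean, with JQ1 left of DMSO for each gene. ITGAL is the highest in both groups, at 112 in JQ1 and 166 in DMSO, and ITGB7 the lowest, at 0.234 in JQ1 and 0.757 in DMSO.

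Ratios between related genes within a library need no scaling between libraries, and 7 pairs were compared by a 2-sided exact permutation test, whose smallest possible p with 3 libraries against 3 is 0.1. ITGA4 over ITGB1, per kilobase, was 0.234, 0.226 and 0.526 in JQ1 replicates 1, 2 and 3, against 0.836, 0.847 and 1.57 in DMSO. The groups did not overlap (difference of mean log2 ratios -1.78, exact p = 0.1, 0.12 adjusted over the pairs). ITGB7 over ITGB1 was 0.00438, 0.00720 and 0.00298 in JQ1, against 0.0144, 0.0210 and 0.0298 in DMSO (-2.19, exact p = 0.1). For the α4 chain over ITGB7 the groups overlapped, with 53.3, 31.4 and 176 in JQ1 and 58.0, 40.4 and 52.8 in DMSO (0.42, exact p = 0.8), and the high JQ1 value rests on 9 ITGB7 reads.

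For LFA-1, ITGAL over ITGB2 was 11.1, 11.6 and 10.4 in JQ1 replicates 1, 2 and 3, against 8.77, 9.11 and 8.22 in DMSO. The ratio was higher in each JQ1 library, by 0.35 in mean log2 (exact p = 0.1), since ITGAL fell less than ITGB2. Among the ligands, ICAM1 over ICAM2 was 0.114, 0.145 and 0.0859 in JQ1, against 0.327, 0.352 and 0.281 in DMSO (-1.5). ICAM1 over ICAM3 differed by -0.65 and ICAM3 over ICAM2 by -0.85. All 3 ICAM ratios had groups that did not overlap and an exact p = 0.1, the smallest that 3 libraries a group can give.

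**Figure D4:**
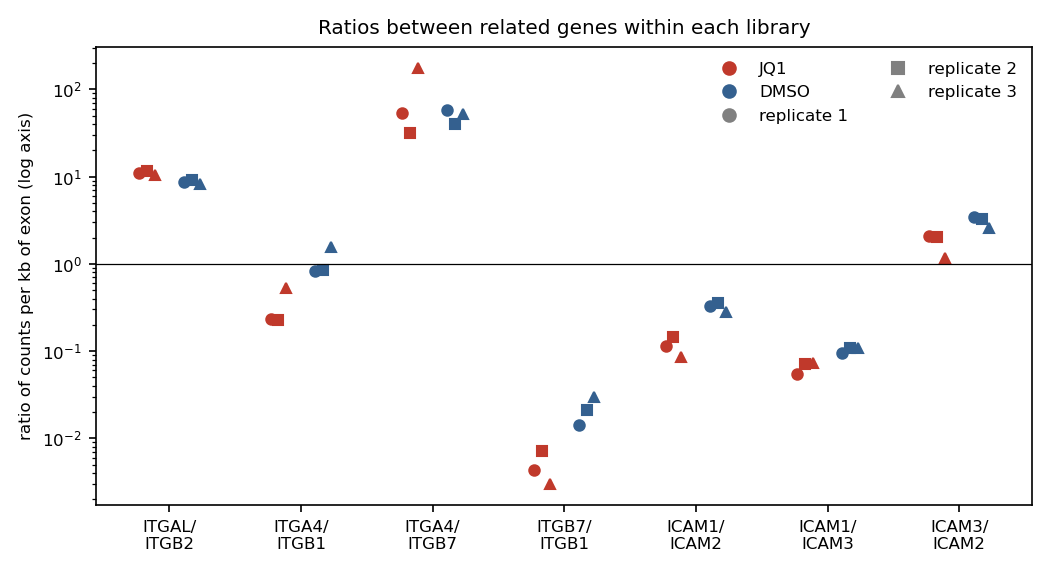
Ratio of counts per kilobase of exon between 7 pairs of related genes in each library, on a log axis, with JQ1 left of DMSO for each pair. The groups are apart for 6 pairs and overlap for ITGA4 over ITGB7, where JQ1 replicate 3 is at 176.

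Of 21 further integrin chains 7 passed the filter and 2 had no read. The counts of this and the next lists stand against 20.6% of all tested genes called lower and 15.9% called higher. Of the 7, 4 fell and 0 rose in edgeR, at an unadjusted p under 0.05 as well as after adjustment, and DESeq2 and limma-voom also called 0 higher. ITGA5, the α chain of the main fibronectin receptor, had 20.3 ± 4.57 CPM in JQ1 and 44.3 ± 7.85 CPM in DMSO (log2 change -1.13 ± 0.18, edgeR adjusted p = 0.0011). The collagen-binding chains ITGA2 and ITGA1 had log2 changes of -0.73 ± 0.12 and -1.63 ± 0.28, and ITGAE, which pairs with β7 on tissue T cells, of -0.52 ± 0.11. The other 3 tested, ITGA6, ITGA7 and ITGA10, did not pass, with log2 changes of 0.10, 0.09 and 0.05. The myeloid partners of ITGB2 were near 0, with 8 reads of ITGAM in JQ1 and 25 in DMSO, and 1 read of ITGAX in each group.

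Genes that switch integrins on or tie them to actin moved in both directions. Of 34 tested among 44, 14 fell and 9 rose, with a median log2 change of -0.25. FERMT3, the kindlin of blood cells that binds integrin β tails, had 27.8 ± 1.97 CPM in JQ1 and 78.8 ± 3.69 CPM in DMSO (-1.5 ± 0.09, edgeR adjusted p = 6.4e-06). RASGRP2, the exchange factor that activates RAP1, fell by 3.06 ± 0.28, with 124 reads in JQ1 and 1225 in DMSO. RASSF5, the RAP1 effector RAPL, and the adaptor FYB1 had log2 changes of -1.11 ± 0.09 and -1.06 ± 0.09. LPXN, a paxillin relative of leukocytes, and DOK1, which competes with talin for β tails, had log2 changes of -1.06 ± 0.12 and -1.85 ± 0.21. Among the genes that rose, chosen after their values were seen, were the focal adhesion gene VCL (1.29 ± 0.18), the actin crosslinker ACTN4 (0.61 ± 0.08) and CYTH1, a cytohesin that binds the β2 tail (0.67 ± 0.09). TLN1, the main talin, did not pass, at -0.23 ± 0.11 (edgeR adjusted p = 0.12). With the replicate block 18 of the list were lower and 14 higher, and of all 13975 tested genes 4133 were lower and 3813 higher.

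Among selectins and the genes that make selectin ligands 21 of 28 were tested, and 6 fell and 4 rose (median -0.20). The hyaluronan receptor CD44 (-1.44 ± 0.19), the Golgi GDP-fucose carrier SLC35C1 (-1.19 ± 0.18) and GCNT4 (-0.84 ± 0.14) were lower. GLG1, a Golgi glycoprotein that binds E-selectin, rose by 0.66 ± 0.08 and the sialomucin PODXL by 1.15 ± 0.23. FUT7, the fucosyltransferase that makes sialyl Lewis x on PSGL-1, had no read in JQ1 and 5 in DMSO. The shares lower and higher were near those over all tested genes. The block called 11 of this list lower and 7 higher, and of all 13975 tested genes 4133 lower and 3813 higher.

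Of 32 other adhesion molecules and integrin ligands 19 were tested, and 7 fell and 4 rose (median -0.25). PECAM1, a junction molecule of endothelium and leukocytes, fell by 3.39 ± 0.25 (edgeR adjusted p = 4.6e-05), to 7.36 ± 2.66 CPM in JQ1, against 78.3 ± 13.1 CPM in DMSO. JAM3 (-1.35 ± 0.17), the CD2 ligand CD58 (-1.18 ± 0.22), CD6 (-1.81 ± 0.34) and its ligand ALCAM (-1.24 ± 0.28) were lower too. CD47, the signal that holds off macrophages, rose by 0.41 ± 0.09. VCAM1, the vessel-wall ligand of VLA-4, had no read in any library. MADCAM1, the ligand of the receptor of ITGA4 and ITGB7, rose by 1.87 ± 0.43 (edgeR adjusted p = 0.0067). It had few reads, 41 in JQ1 and 13 in DMSO. Without JQ1 replicate 2 or DMSO replicate 1, or with library size as the only scaling, 2 of this list were higher.

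**Figure D5:**
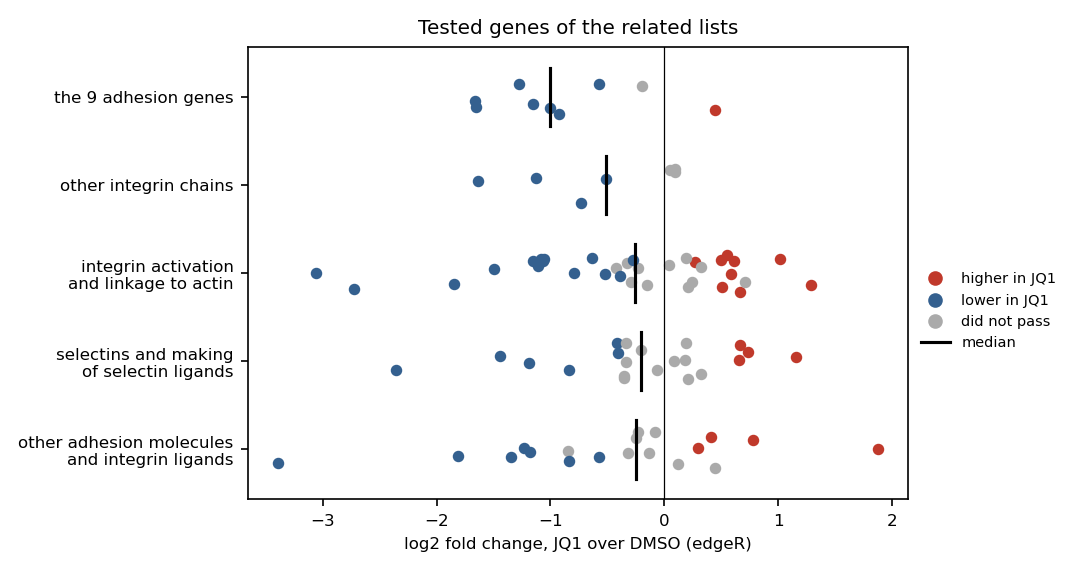
Log2 fold change of JQ1 over DMSO of each tested gene in the 9 adhesion genes and 4 related lists, coloured by whether the gene was higher, lower or did not pass in edgeR, with the median as a bar. Medians are -1.0, -0.52, -0.25, -0.20 and -0.25 from top to bottom, and each list but the other integrin chains holds genes called in both directions.

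The nearest tested genes to either side of the 9 did not share one direction. Some overlapped their gene, and the farthest, PARD3, lay 1103768 bases from ITGB1. ICAM1 and ICAM3 lie in the ICAM cluster of chromosome 19, and ICAM4, which starts 352 bases after ICAM1, overlaps another antisense gene along all its exons and had 1.61 ± 0.389 CPM in JQ1 and 1.72 ± 0.225 CPM in DMSO (log2 change -0.08, edgeR adjusted p = 0.84). ICAM5 had 6 reads in JQ1 and 13 in DMSO and was not tested. MRPL4 on the other side of ICAM1 fell by 0.73, and TYK2 beside ICAM3 did not pass, at 0.16 (edgeR adjusted p = 0.19). RARG beside ITGB7 (-1.72), LINC01934 beside ITGA4 (-2.24) and CD79B beside ICAM2 (-2.82) were lower, as was ITGB2-AS1. ITPRID2, 355646 bases from ITGA4, rose by 0.25 and PTTG1IP beside ITGB2 by 0.35. ERN1 beside ICAM2 (0.61), SEPHS2 beside ITGAL (0.02) and MIR4518 within ITGAL (-0.28) did not pass. Nor did AL365203.2 (0.72) and PARD3 (-0.13) on either side of ITGB1 or ZNF740 (0.13) overlapping ITGB7. ISCU beside SELPLG (0.23) and ENSG00000257221 overlapping SELPLG (-0.44) did not pass either.

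Genes with the pattern most like each of the 9 were taken as the pair with the smallest root mean square distance in centred log2 CPM over the 6 libraries, among 9653 genes of at least 5 CPM. Nearest to ICAM1 were NLRC3 (distance 0.067) and TRPV2 (0.086), with log2 changes of -1.58 and -1.73. ITGAL lay closest to FCHO1 (0.028) and POLL (0.042), and ITGB2 to DNMT3A (0.052) and GHDC (0.061). The rise of ITGB1 was matched by TBCCD1 (0.026) and EZR (0.027), at 0.44 and 0.43. For ITGA4, with its high replicate 3, the nearest were GNGT2 (0.14) and S100A4 (0.21). SELPLG was nearest to UFC1 (0.043) and DUSP2 (0.046), ICAM3 to HDAC8 (0.075) and TRAF3IP3 (0.076), ICAM2 to RPUSD3 (0.036) and H6PD (0.059), and ITGB7 to SEMA4A (0.18) and GIMAP1 (0.19). With 6 libraries in 2 groups such likeness is a description.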

How the data were processed

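The authors deposited raw counts of reads per gene for 6 libraries of a stranded total RNA kit, in the layout of STAR gene counts: unstranded, forward and reverse strand. The submitters' processing notes name the build GRCh38. No source used here gives the aligner or annotation release. In that layout multimapping reads and reads shared by several genes are not counted. Reverse-strand counts exceeded forward-strand counts 20.9 to 22.6 times, so the reverse-strand column was analysed. The first 4 lines are read classes (unmapped, multimapping, no feature, ambiguous; 1.48% to 1.99%, 14.1% to 15.7%, 18.8% to 26.1% and 3.38% to 3.88% of reads) and stayed out of all totals. Of 58096 identifiers 53747 matched GENCODE release 29 with their version, all 9 adhesion genes among them.

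Genes were kept with filterByExpr (minimum count 10, minimum total 15), scaled by TMM factors (0.965 to 1.06) and tested with edgeR 4.0.16 (R 4.3.3; glmQLFit with robust estimation and glmQLFTest on the group term). Benjamini-Hochberg adjustment ran over 13975 genes. SE is the log2 change over the square root of F. At this depth 1 CPM is 15.5 to 26.4 reads. The fit used no molecular identifiers. Log2 CPM used a prior count of 2 and ratios a pseudocount of 0.5. No pair of libraries within a group agreed within sampling noise (chi-square per degree of freedom 13.8 to 28.6). Titles give both groups the numbers 1 to 3. Deviations from each group's mean correlated at 0.33, 0.43 and 0.37 for numbers 1, 2 and 3 across genes. By these values the data pair the libraries by number, although no label says what a number stands for. Between different numbers the correlations ran from -0.25 to -0.14. These are not separate support, since deviations within a group sum to 0. Alternatives were DESeq2 1.42.0, limma-voom (limma 3.58.1), other scalings and filters, unstranded counts, a fit without mitochondrial and small RNA genes, the replicate block and each library left out.

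The 9 genes and the related lists were chosen with earlier results of these data known. Named genes were the 9, up to 6 called genes of each related list with the smallest p, the most abundant gene of each other-cell list, MYC and HEXIM1, the nearest tested gene on either side of each of the 9 and the pair of genes most like each. Other genes were named after their values were seen: VCL, ACTN4, CYTH1, TLN1, FUT7, VCAM1, MADCAM1, CD3D, CD7, TRAC, CD2, PTCRA, MS4A1, COL1A2, COL3A1, DCN, LUM, ITGAM, ITGAX, ITGA6, ITGA7, ITGA10, ICAM5 and PRR29. One gene that this rule names is not reported here.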

Additional observations from a re-analysis of the deposited data

Results flagged for a closer look

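Reads on the strand opposite to ICAM3, which the comparison of ICAM3 itself does not use, were higher in JQ1 than in the DMSO controls. They numbered 199, 169 and 155 in JQ1 replicates 1, 2 and 3, against 86, 86 and 116 in DMSO. Scaled like the main counts and fitted over 6975 genes with enough opposite-strand reads, their log2 change was 1.11 ± 0.17 (edgeR adjusted p = 0.00022), while the sense reads of ICAM3 fell. They were 19.3% of the sense reads in JQ1 and 4.61% in DMSO. AC114271.1 (ENSG00000274425.1), annotated antisense to ICAM3 at chromosome 19, 10333436 to 10336248, had 638 reads in JQ1 and 352 in DMSO in its own count (log2 change 1.11, edgeR adjusted p = 0.00077). It shares 71.2% of the exon bases of ICAM3. Reads there enter both counts, so its change is not a separate observation.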

How the results depend on the processing

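With the replicate block 3813 genes were called higher, against 2227 by group only, and 4133 lower, against 2883, so the share of all tested genes that is called is larger there too. Across all alternatives 1 of the 9 genes was higher and 6 to 8 were lower; 6 when ITGA4 lost its call (no filter on low counts, and without replicate 1 or 2 of JQ1 or replicate 1 or 3 of DMSO) and 8 when ICAM2 gained one under the block. No other call on the 9 changed with the block, and none changed sign in any setting run. Genes called higher ran from 1707 to 1901 and lower from 2436 to 2627 with 1 library left out. The difference in log2 ratio of ITGA4 over ITGB7 was 0.42 and turned to -0.070 with unstranded counts, with a range of -0.28 to 0.96 with 1 library left out; without JQ1 replicate 3 it was -0.28. The cause was not tested. Within replicate numbers a sign-flip test of the 7 ratios has a smallest p of 0.25, which 6 of them reached. With 1 library left out the ratios of ITGA4 over ITGB1 ran from -2.17 to -1.47, ITGAL over ITGB2 from 0.30 to 0.39 and ITGB7 over ITGB1 from -2.53 to -1.89. Depth limits ITGB7 and ICAM1 most, with 67 and 221 JQ1 reads in all.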

Other observations

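Libraries of a group kept an order across several of the 9 genes. JQ1 replicate 2 was the highest JQ1 library for 7 of them and the lowest for 0, and DMSO replicate 1 was the lowest DMSO library for 7. Replicate 3 was the highest for ITGA4 in both groups, but the lowest JQ1 library for ICAM1, ICAM3, ITGB1, ITGB7 and SELPLG. The coefficient of variation between JQ1 libraries ran from 6.02% (ITGB1) to 51.5% (ITGB7).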
